A study of Homo sapiens with 10 samples.

Results

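The nuclear genes for subunits of respiratory chain complexes I to IV were followed after exposure to CLEFMA in the established line NCI-H441, which came from a human lung adenocarcinoma. The treated group was 5 arrays of cells given 1 µM CLEFMA, a synthetic small molecule, in medium with 0.1% DMSO for 12 h. The control group was 5 arrays of cells given 0.1% DMSO alone for 12 h. Both groups grew in medium with serum and the antibiotic gentamicin, and the controls, called untreated in one label, had the vehicle per the treatment protocol. The subunits were a list of 38 gene symbols. The list was not chosen by a measured value, but earlier results of these data were known. A probe with a gene symbol was found for 34 of the 38, out of 17753 genes tested on Illumina HumanWG-6 bead arrays. NDUFA2, NDUFA6, SDHB and UQCRFS1 were not analysed here. The labels name 5 replicates in one place, 4 wells in another and 3 biological replicates elsewhere. Nothing says that each array is a separate culture, so the p-values cover the spread among these arrays alone, and part of it may be technical.

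The respiratory chain sits in the inner mitochondrial membrane and passes electrons from NADH and succinate to oxygen while pumping protons that drive ATP synthesis. Complex I oxidises NADH, complex II oxidises succinate, complex III passes electrons from ubiquinol to cytochrome c, and complex IV, cytochrome c oxidase, reduces oxygen. Subunits of complexes I, III and IV come from both the nuclear and the mitochondrial genome, and complexes I and III are well known sources of superoxide. Many nuclear subunit genes are known to be driven by the transcription factors NRF1 (nuclear respiratory factor 1, not NRF2 of the oxidant response), GABP, of which GABPA is the DNA-binding chain, and YY1.

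Promoters are shown because shared factor sites are the feature through which these genes are held to be regulated together. RefSeq windows on GRCh38.p14, from 250 bases before to 50 bases after each gene's start, were found for 34 of the 38 listed genes, with 40 windows in all since 4 genes have several. For each complex the window printed is that of the measured subunit with the largest difference between groups, whichever its direction, among those whose window can be shown. Capitals mark letters that match an NRF1, GABP or YY1 motif on either strand.

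NDUFA8: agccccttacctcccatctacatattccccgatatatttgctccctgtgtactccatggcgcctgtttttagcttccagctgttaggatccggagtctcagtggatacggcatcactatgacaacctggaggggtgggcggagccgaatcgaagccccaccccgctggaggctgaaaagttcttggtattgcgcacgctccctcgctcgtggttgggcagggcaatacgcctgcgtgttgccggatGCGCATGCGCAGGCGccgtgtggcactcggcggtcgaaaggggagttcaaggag
SDHD: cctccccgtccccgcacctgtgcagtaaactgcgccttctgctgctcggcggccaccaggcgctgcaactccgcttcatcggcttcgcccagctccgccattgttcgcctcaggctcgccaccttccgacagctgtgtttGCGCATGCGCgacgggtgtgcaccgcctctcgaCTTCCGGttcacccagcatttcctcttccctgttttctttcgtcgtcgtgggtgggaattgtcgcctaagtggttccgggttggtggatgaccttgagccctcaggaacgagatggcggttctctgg
UQCRC2: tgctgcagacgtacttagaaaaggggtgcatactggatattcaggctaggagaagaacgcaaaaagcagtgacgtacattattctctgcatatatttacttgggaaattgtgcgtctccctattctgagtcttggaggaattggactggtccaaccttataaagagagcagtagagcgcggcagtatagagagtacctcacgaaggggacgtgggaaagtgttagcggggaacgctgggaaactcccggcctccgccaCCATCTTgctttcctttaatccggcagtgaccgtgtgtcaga
COX8A: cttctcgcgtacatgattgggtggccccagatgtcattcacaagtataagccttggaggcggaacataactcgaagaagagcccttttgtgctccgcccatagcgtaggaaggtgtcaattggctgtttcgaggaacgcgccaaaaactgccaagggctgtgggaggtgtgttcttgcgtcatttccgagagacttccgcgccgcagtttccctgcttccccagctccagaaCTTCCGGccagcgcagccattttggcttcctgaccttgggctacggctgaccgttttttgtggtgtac

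The NDUFA8 window lies at chr9:122159730-122160029 on the minus strand and the SDHD window at chr11:112086623-112086922 on the plus strand. The UQCRC2 window lies at chr16:21953111-21953410 and the COX8A window at chr11:63974370-63974669, both on the plus strand. NDUFA8 has overlapping NRF1 matches across its start, SDHD has overlapping NRF1 matches and 1 GABP match, UQCRC2 has 1 YY1 match just after its start, and COX8A has 1 GABP match just before it.

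Over the 40 windows the NRF1 motif, searched as GCGCANGCG on both strands, was found in 20% of windows, against 9.9% of the 19874 windows of all genes tested. The GABP motif, CCGGAAG, was found in 30% of the subunit windows and 13% of all tested, and the YY1 motif, AAGATGG, in 22.5% and 6.1%. At least 1 of the 3 was in 57.5% of subunit windows and 25.3% of all tested. The subunit windows include those of NDUFA2, NDUFA6, SDHB and UQCRFS1, which were not tested, so the compared sets differ. Over all 35116 windows, of genes tested or not, the share was 20.9%. GGGCGG, the box bound by SP1, was in 65% of subunit windows and 56.7% of all tested. TGACNNNGC, the core of the antioxidant response element bound by NRF2, was in 15% of subunit windows and 14.2% of all tested, in NDUFA1, NDUFA2, NDUFA9, NDUFS1, NDUFS4 and UQCRC1. These shares describe letters in the windows and were not tested. The 11 measured subunits with a GABP match had a median log2 difference of 0.08, against 0.05 for the 19 without. The 7 with an NRF1 match had a median of 0.10, against 0.06 for the 23 without. The 7 with a YY1 match had 0.05, against 0.07 for the 23 without. For the SP1 box the medians were 0.08 with (17) and 0.05 without (13). For the antioxidant response element they were 0.05 with (5) and 0.08 without (25). NDUFB5, SDHC, CYC1 and COX6C had no window and are in neither group. These medians were not tested against each other.

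Values are log2 values of 1 probe per gene, the brightest, after quantile normalization between arrays. Each probe has its own brightness, so a level is compared between samples and never between genes. All 34 subunits were above background on all 10 arrays, as were 11182 of the 17753 genes tested. NDUFB1 and NDUFS1 lay close to background, with means of 2.76 and 3.71 in treated cells and 2.67 and 3.83 in control cells. The background limit is 2.20 before normalization. Epithelial identity matched the label, with NKX2-1, EPCAM, CDH1, KRT18 and 5 other of the 10 lung epithelial markers above background on every array and SFTPC on none. Among those 5, SFTPD and SFTPB were low, with means of 3.19 and 4.07 in treated cells and 3.23 and 4.29 in control cells. Probes above background made up 50.4% to 53.7% of each treated array and 49.1% to 53.6% of each control array. Control 3 stood apart, correlating on average at 0.979 with the remaining arrays over all genes, where each of those reached 0.987 to 0.992, so its effect on the subunits is given beside the results.

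No respiratory chain subunit passed the test between treated and control cells. In limma, with Benjamini-Hochberg adjustment over all genes, 0 of 34 subunits had an adjusted p under 0.05, where 0.299% of all genes tested did. At an unadjusted p under 0.05 there was 1 subunit higher, NDUFA8, and 0 lower, where 4.48% of all genes were higher and 4.48% lower. The treated and control values overlapped for all 34 subunits, while 2.5% of all genes tested were fully separated between groups. Log2 differences, treated minus control, ran from −0.24 for SDHD to 0.28 for SDHC. They were positive for 22 subunits (64.7%) and negative for 12, against 51.5% positive over all genes. The median was 0.07 over the subunits and 0.01 over all genes.

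The intervals give the range of differences that these arrays allow. The 95% interval of the difference, taken gene by gene with no adjustment for their number, lay within a 1.5-fold change in either direction for 32 of 34 subunits. Over all genes it did so for 14517 of the 17753 tested, so such intervals were common on these arrays. SDHC reached 1.54-fold higher and SDHD 1.54-fold lower at the far end of their intervals. The median standard error of a difference was 0.11 over the subunits and 0.13 over all genes. In the same cells and the same fit 4 of 6 listed oxidant response genes passed: NQO1, GCLM, TXNRD1 and SLC7A11, with log2 differences of 0.91 to 1.91, GCLM and TXNRD1 doing so in 11 and 7 of 21 alternative settings. HMOX1 and SRXN1 did not pass, with differences of 1.72 ± 0.51 and 1.35 ± 0.32 (limma adjusted p = 0.337 and 0.191), although neither gene's groups overlapped. A difference of that size thus does not always pass with 5 arrays a group. In both genes treated 5 was far above the other treated arrays, for SRXN1 at 7.88 against 5.87 to 6.05. Standard errors of the subunits were smaller, at 0.08 to 0.17, so these 2 genes do not show what size of subunit difference could be missed. The arrays measure bulk RNA at equal total signal, so fewer cells rich in a transcript and less of that transcript per cell cannot be told apart, and a change shared by all transcripts would not be seen.

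**Figure D1:**
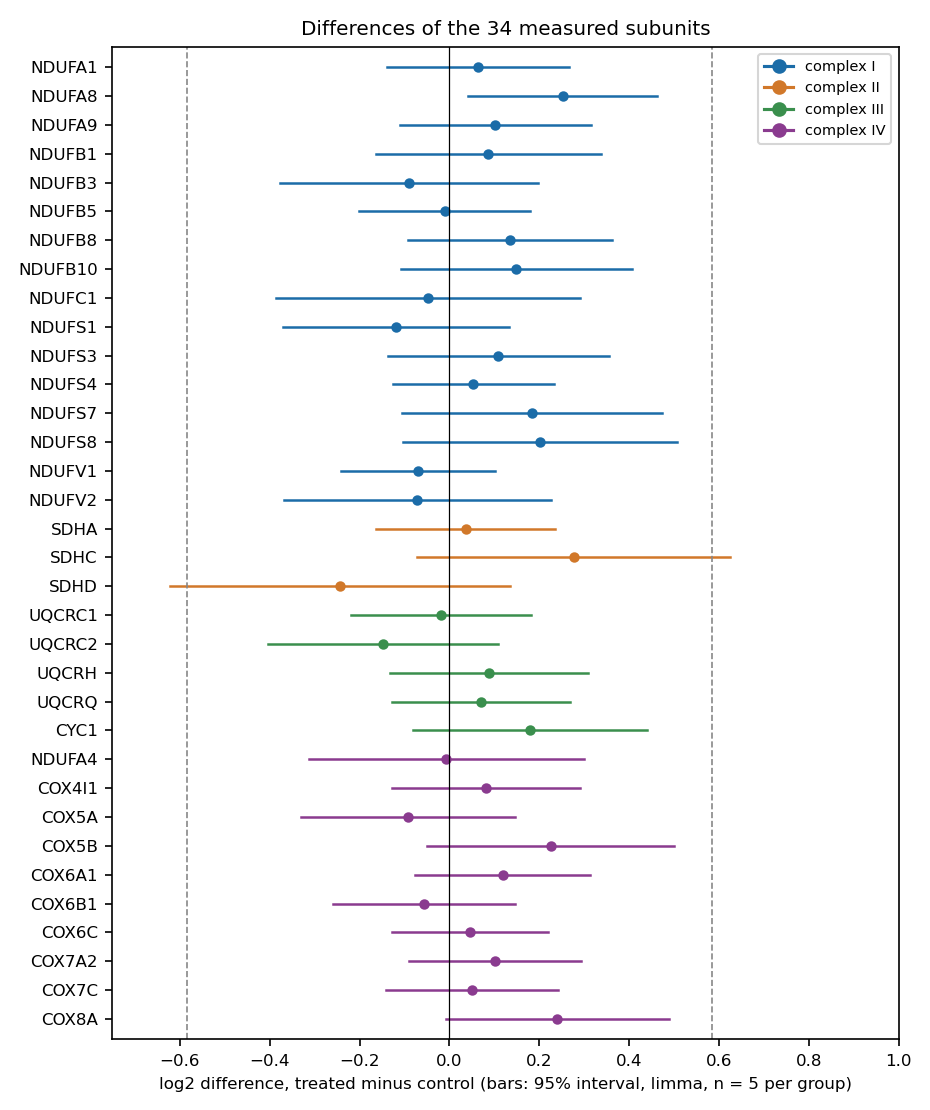
Log2 difference of each of the 34 measured subunits, treated minus control, with its 95% interval from limma (5 arrays per group); dashed lines mark a 1.5-fold change in either direction. All points lie between −0.24 and 0.28, and the interval of NDUFA8 is the one that leaves out 0.

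Complex I had 16 measured subunits, with a median difference of 0.08, 10 of them positive. NDUFA8, an accessory subunit of the membrane arm, had values of 8.66, 8.85, 8.88, 8.66 and 8.79 on the treated arrays, against 8.48, 8.60, 8.27, 8.55 and 8.66 on the control arrays. Treated arrays 2, 3 and 5 lay above every control, and treated arrays 1 and 4 lay just under control 5. The difference was 0.25 ± 0.10 (SE, n = 5 per group, limma adjusted p = 0.476), a 1.19-fold ratio that did not pass. NDUFS1, the largest iron-sulfur subunit, had values of 3.83, 3.66, 3.68, 3.61 and 3.77 in treated cells, against 3.71, 3.70, 4.23, 3.85 and 3.66 in control cells. The groups overlapped and the highest value was control 3. Its difference of −0.12 ± 0.12 was the lowest of the complex. NDUFA1, a small accessory subunit of the membrane arm with the brightest probe of the complex, had values of 10.47, 10.43, 10.58, 10.63 and 10.54 in treated cells, against 10.65, 10.45, 10.27, 10.58 and 10.39 in control cells. Both the highest and the lowest of the 10 were controls, and the difference was 0.06 ± 0.09.

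The electron-carrying core of complex I did not move one way. NDUFV1, which binds NADH and flavin, differed by −0.07 ± 0.08, and NDUFV2, an iron-sulfur subunit beside it, by −0.07 ± 0.14. NDUFS7 and NDUFS8, iron-sulfur subunits near the ubiquinone site, differed by 0.18 ± 0.13 and 0.20 ± 0.14, and NDUFS3, a core subunit of the same arm, by 0.11 ± 0.11. NDUFS4, an accessory subunit needed to attach the NADH-oxidising module, differed by 0.05 ± 0.08. Among other accessory subunits NDUFA9 differed by 0.10 ± 0.10, NDUFB8 by 0.13 ± 0.10 and NDUFB10 by 0.15 ± 0.12. NDUFB3 differed by −0.09 ± 0.13, NDUFB5 by −0.01 ± 0.09 and NDUFC1 by −0.05 ± 0.16. NDUFB1, near background, differed by 0.09 ± 0.11. Without control 3, NDUFS7, NDUFS8 and NDUFS3 differed by 0.07, 0.06 and 0.02, NDUFA9 by 0.03, NDUFB8 by 0.06 and NDUFB10 by 0.04. On the same arrays NDUFV2, NDUFB3 and NDUFC1 turned positive, at 0.07, 0.0088 and 0.11, and NDUFB5 was at −0.04. NDUFS1 was then at −0.02, NDUFA1 at 0.02 and NDUFA8 at 0.19. None of these 13 passed with all arrays, with limma adjusted p-values of 0.659 to 0.973.

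Complex II, which is also the citric acid cycle enzyme succinate dehydrogenase and is built from nuclear genes alone, held the extremes of both directions. SDHC, a membrane anchor subunit, had values of 7.65, 7.85, 7.64, 7.76 and 7.73 in treated cells, against 7.59, 7.55, 6.77, 7.70 and 7.65 in control cells. SDHD, the other anchor, had values of 7.29, 7.17, 7.37, 7.32 and 7.20 in treated cells, against 7.37, 7.30, 8.26, 7.19 and 7.45 in control cells. In both genes the treated arrays lay close together and control 3 lay far from the other controls, low for SDHC and high for SDHD. The differences were 0.28 ± 0.16 (limma adjusted p = 0.608) for SDHC and −0.24 ± 0.17 (limma adjusted p = 0.665) for SDHD. Without control 3 they were 0.11 and −0.06. SDHA, the flavoprotein that oxidises succinate, had values of 7.95, 7.86, 7.92, 7.88 and 7.90 in treated cells, against 7.90, 7.86, 7.62, 7.89 and 8.06 in control cells. Its difference was 0.04 ± 0.09, and −0.03 without control 3. A second SDHC probe differed by −0.10, so the probes of SDHC had opposite signs. SDHA has near-identical pseudogene copies, so its value is uncertain as to which copy was bound.

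Complex III had 5 measured subunits, with a median difference of 0.07. CYC1, cytochrome c1, had values of 9.92, 9.95, 9.92, 9.96 and 10.18 in treated cells, against 9.58, 9.94, 9.51, 9.98 and 10.04 in control cells. Treated 5 was the highest of the 10 arrays, controls 1 and 3 were the lowest, and the other 7 were close together. Its difference was 0.18 ± 0.12 (limma adjusted p = 0.645). UQCRC2, a core subunit, had values of 7.24, 7.01, 7.05, 6.996 and 7.33 in treated cells, against 7.25, 7.17, 7.64, 7.19 and 7.12 in control cells, with control 3 the highest. It differed by −0.15 ± 0.12, and its partner core subunit UQCRC1 by −0.02 ± 0.09. UQCRH, the hinge protein that helps cytochrome c1 dock cytochrome c, had values of 10.65, 10.68, 10.68, 10.73 and 10.85 in treated cells, against 10.79, 10.79, 10.34, 10.62 and 10.60 in control cells. The groups overlapped, with a difference of 0.09 ± 0.10, and a second UQCRH probe differed by −0.21. UQCRH has a near-identical copy elsewhere in the genome, so either value may hold signal of both. UQCRQ, a small accessory subunit, differed by 0.07 ± 0.09. Without control 3, CYC1 differed by 0.11, UQCRC2 by −0.06, UQCRH by 0.02 and UQCRQ by 0.04, and UQCRC1 turned positive, at 0.03.

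Complex IV had 10 measured subunits, with a median difference of 0.07 and 7 of them positive. NDUFA4, named for complex I but known to belong to cytochrome c oxidase, is counted here. COX8A, a small subunit, had values of 10.61, 10.90, 10.77, 10.56 and 10.65 in treated cells, against 10.48, 10.44, 10.12, 10.66 and 10.59 in control cells. Treated arrays 2 and 3 lay above all controls and the rest overlapped, with a difference of 0.24 ± 0.11 (limma adjusted p = 0.568). COX5A, which lies on the matrix side, had values of 9.44, 9.58, 9.62, 9.50 and 9.70 in treated cells, against 9.56, 9.59, 10.01, 9.47 and 9.66 in control cells. Only control 3 was outside the range of the treated arrays, and the difference was −0.09 ± 0.11, the lowest of the complex. COX7C, the complex IV member with the brightest probe, had values of 10.97, 10.89, 10.93, 11.05 and 11.17 in treated cells, against 11.08, 11.04, 10.91, 10.86 and 10.87 in control cells. The groups overlapped through most of their range and differed by 0.05 ± 0.09.

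The remaining complex IV subunits also overlapped between groups. COX5B, a zinc-binding subunit, differed by 0.23 ± 0.13 and COX4I1, the common form of the regulatory subunit 4, by 0.08 ± 0.10. COX6A1, the form of subunit 6A outside muscle, differed by 0.12 ± 0.09, COX6B1, which faces the intermembrane space, by −0.06 ± 0.09 and COX6C by 0.05 ± 0.08. COX7A2, the form of subunit 7A outside muscle, differed by 0.10 ± 0.09 and NDUFA4 by −0.01 ± 0.14. Without control 3, COX8A differed by 0.16, COX5B by 0.11, COX4I1 by 0.02, COX6A1 by 0.06 and COX7A2 by 0.07. COX5A was then at −0.0039 and COX6B1 at −0.09, while NDUFA4 turned positive, at 0.11. Forms of these subunits that other tissues use were measured too: COX4I2, COX6B2, COX7A1, COX7B2, COX8C and NDUFA4L2 were tested and none was above background on all 10 arrays, with COX7B2 above it on none. None of the 6 passed, and COX8C, with the lowest unadjusted p of the 6, differed by 0.21 ± 0.13 (limma adjusted p = 0.632) with values near background.

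**Figure D2:**
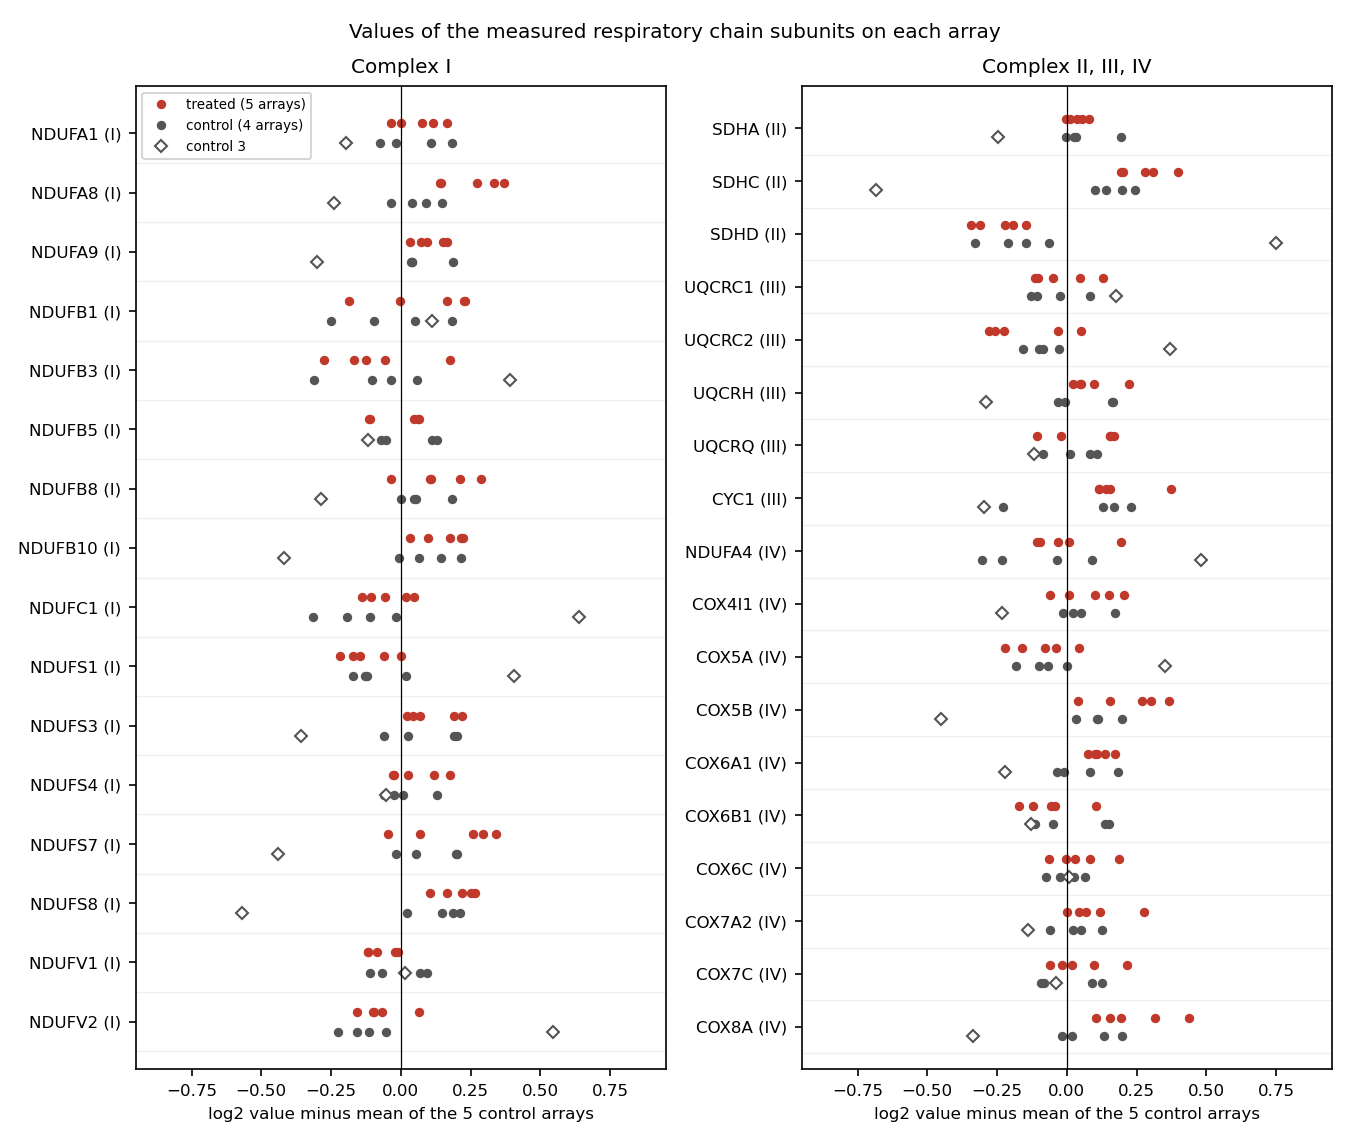
Log2 value of each measured subunit on each array minus the mean of the 5 control arrays (horizontal axis), with treated arrays above control arrays in each row and control 3 as an open diamond; the complex is in brackets. Treated and control points overlap in all 34 rows, and control 3 lies below the other controls in 20 rows and above them in 9.

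The widest spread among the subunits lay within the control group and not between the groups. The median SD of a subunit was 0.10 over the treated arrays and 0.18 over the control arrays, and that of all genes was 0.17 and 0.22, so the control arrays spread more widely over all genes too. Control 3 lay below all 4 other controls for 20 of 34 subunits and above all of them for 9, while over all genes it lay below for 30.4% and above for 27.7%. Its distance from the mean of the other controls ran from −0.86 for SDHC to 0.93 for SDHD, with a median of −0.17. Low values on control 3 included NDUFS8 (−0.71), COX5B (−0.56), NDUFS7 (−0.55) and NDUFB10 (−0.52). High values included NDUFC1 (0.80), NDUFV2 (0.68), NDUFA4 (0.60) and NDUFS1 (0.51). By the probe used for each gene, subunits of 1 complex therefore lay on both sides on the same array. Complex I had 9 subunits below and 4 above, and complex IV 6 below and 2 above. The side could depend on the probe. A second UQCRH probe was at 10.14 on control 3, above the other controls (9.25 to 9.74), where the used probe lay below them. A second SDHC probe was at 5.92, within the other controls (5.62 to 6.13). Second probes of NDUFB3 and SDHA lay on the same side as the used ones.

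Treated 5, the treated array on which the oxidant response gene HMOX1 was at 10.14 against 7.03 to 7.18 on the other treated arrays, lay above the other 4 treated arrays for 14 of 34 subunits and below them for 1. Over all genes it lay above for 27.5% and below for 22.8%. Treated 1 lay below the other treated arrays for 16 subunits and above them for 2, where over all genes it lay below for 16.9% and above for 18%. Relative to each gene's mean over all arrays, the median subunit was at −0.03, −0.0044, 0.05, 0.02 and 0.10 on treated arrays 1 to 5, against −0.04, −0.01, −0.17, −0.01 and −0.01 on control arrays 1 to 5. Without control 3 the subunits' median difference was 0.04, 26 of 34 were positive and the differences ran from −0.09 for COX6B1 to 0.19 for NDUFA8. Without control 3 and treated 5, an alternative chosen after the data were seen, the median was 0.02, 22 were positive and the range was −0.13 to 0.19. The median thus came closer to 0 without these arrays, while the number of positive subunits did not fall. The call of 0 of 34 did not change, and without control 3 all 34 intervals lay within a 1.30-fold change.

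**Figure D3:**
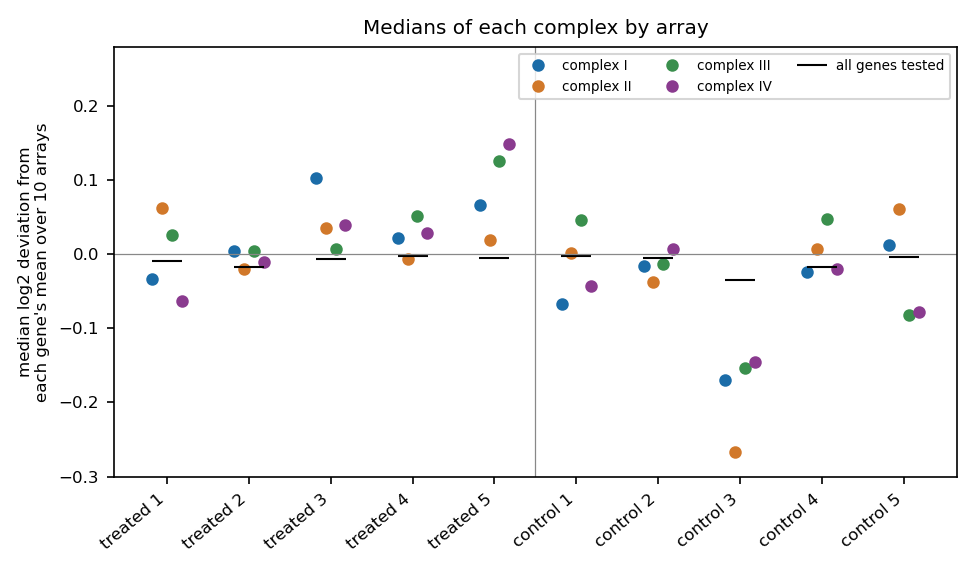
Median deviation of the subunits of each complex from each gene's mean over the 10 arrays (vertical axis, log2 units), by array, with the median of all genes as a black bar. All 4 complexes are lowest on control 3, and complexes III and IV are highest on treated 5.

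**Figure D4:**
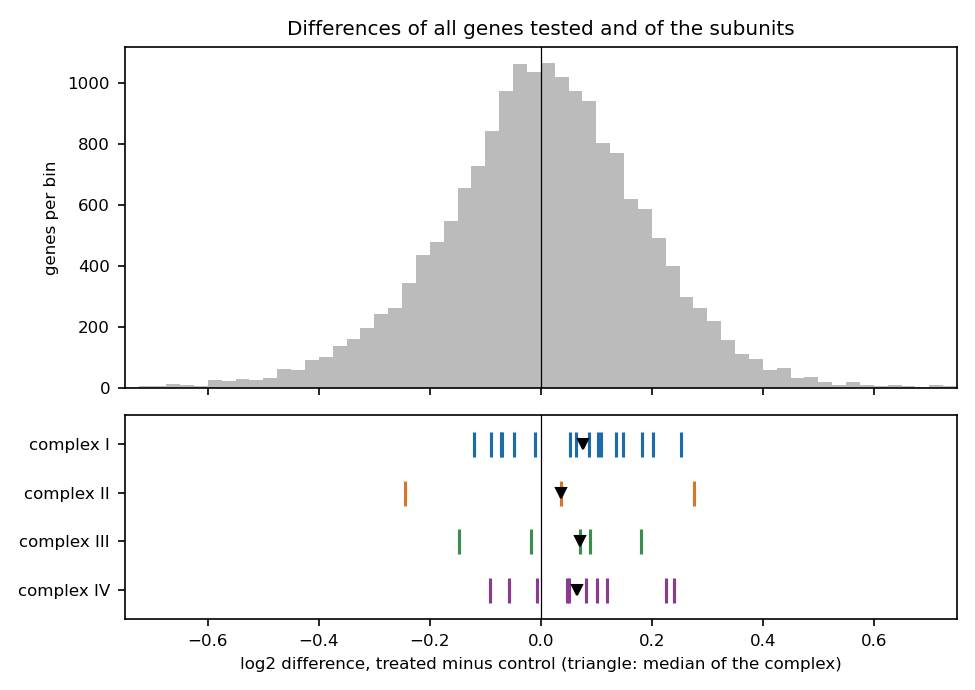
Log2 differences, treated minus control, of all 17753 genes tested as a histogram (top; 21 genes lie below and 59 above the axis range of 0.75) and of the measured subunits by complex (bottom; triangles are medians). The subunits lie within the central part of the distribution, with medians of 0.08, 0.04, 0.07 and 0.07 for complexes I, II, III and IV.

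Genes around the chain were read from lists chosen with earlier results of these data known. Of 17 measured complex I subunits outside the list above, 0 passed, 15 had positive differences and the median was 0.14. NDUFV3, an accessory subunit of the NADH-binding module, had the lowest unadjusted p of these and differed by 0.27 ± 0.11 (limma adjusted p = 0.504), with values of 4.85, 5.08, 5.06, 4.81 and 5.04 in treated cells, against 4.64, 4.66, 4.44, 4.85 and 4.92 in control cells. On control 3 the median of these 17 was −0.36 from each gene's mean, the lowest of all arrays. Among the 17, NDUFS6 was above background on 1 treated and 1 control array, and NDUFB4 on 5 treated and 4 control arrays. Both count among the 15 positive differences. Of UQCRB, UQCR10, UQCR11 and COX7B, the other subunits of complexes III and IV, 0 passed. UQCR10, a small complex III subunit, had values of 6.58, 6.60, 6.66, 6.63 and 6.74 in treated cells, against 6.39, 6.44, 5.95, 6.42 and 6.53 in control cells. Its groups did not overlap, but the difference of 0.29 ± 0.11 did not pass (limma adjusted p = 0.471), and it was 0.13 as the mean over its probes.

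ATP synthase, which uses the proton gradient to make ATP, had 15 measured subunits with a median difference of −0.0041, 7 positive and 0 past the test. ATP5PB, a stalk subunit, had its lowest unadjusted p, with a difference of −0.16 ± 0.10 (limma adjusted p = 0.613). Of 13 genes for cytochrome c, the electron transfer flavoproteins and coenzyme Q synthesis, 0 passed and the median was 0.13; PDSS2, which makes the coenzyme Q side chain, differed by 0.23 ± 0.13. Of 39 assembly factors, 0 passed and 30 were positive, with a median of 0.14. COA6, a factor of complex IV assembly, differed by 0.34 ± 0.12 (limma adjusted p = 0.435). At an unadjusted p under 0.05, where 4.48% of all genes were higher and 4.48% lower, there were 4 of 39 assembly factors higher and 0 lower. By the same measure 2 of the 17 other complex I subunits, 1 of the 4 other subunits of complexes III and IV, 3 of 13 import and chaperone genes and 1 of 19 citric acid cycle genes were higher and 0 lower. ATP synthase and the electron carriers had 0 in either direction, and the regulators named next had 0 of 14 higher and 1 lower.

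Transcription factors and co-activators of the chain's genes did not pass either. Of 14 such genes the median was −0.13 and 10 were negative. GABPA had values of 5.31, 5.28, 5.28, 5.29 and 5.15 in treated cells, against 5.74, 5.46, 6.46, 5.55 and 5.35 in control cells. Every treated array lay below every control, narrowly against control 5, and control 3 was far above the rest. The difference was −0.45 ± 0.18 (limma adjusted p = 0.488), and −0.23 without control 3 and treated 5. YY1 differed by −0.22 ± 0.12 and TFAM, which packages and transcribes mitochondrial DNA, by 0.14 ± 0.11. NRF1 was above background on 2 of 5 treated and 3 of 5 control arrays, and PPARGC1A on none, so no change of either could be read.

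Mitochondrial pathways that feed or build the chain gave no call. Of 19 citric acid cycle and pyruvate dehydrogenase genes, 0 passed and the median was −0.04. IDH3A, a subunit of NAD-dependent isocitrate dehydrogenase, differed by 0.34 ± 0.13 (limma adjusted p = 0.476). Of 13 import and chaperone genes, 0 passed and the median was 0.01. HSPE1, the mitochondrial co-chaperonin, had values of 10.43, 10.34, 10.48, 10.51 and 10.68 in treated cells, against 10.35, 10.22, 10.13, 10.17 and 10.24 in control cells. Treated 2 lay just below control 1 and the other treated arrays above all controls, with a difference of 0.27 ± 0.09 (limma adjusted p = 0.405). The 13 protein-coding genes of the mitochondrial genome were not analysed here.

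Markers of other cell types gave no call. Of the markers tested, 4 of 8 for fibroblasts, 4 of 10 for leukocytes and 3 of 6 for endothelium were above background on every array. The lowest unadjusted p of each list belonged to PDGFRB, which was above background on 0 treated and 2 control arrays, to CD3D, on 4 treated and 0 control arrays, and to ERG, on 5 treated and 4 control arrays. Their limma adjusted p-values were 0.476, 0.479 and 0.287. The ERG groups did not overlap, with treated cells higher by 0.39 ± 0.11 near background. Of the 10 epithelial markers 9 had negative differences, with 2 lower at an unadjusted p under 0.05 and a median of −0.11, while the subunits' median was positive; its part in the subunits' values was not tested. CDH1 had the lowest p of these, with a difference of −0.26 ± 0.10 (limma adjusted p = 0.488).

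**Figure D5:**
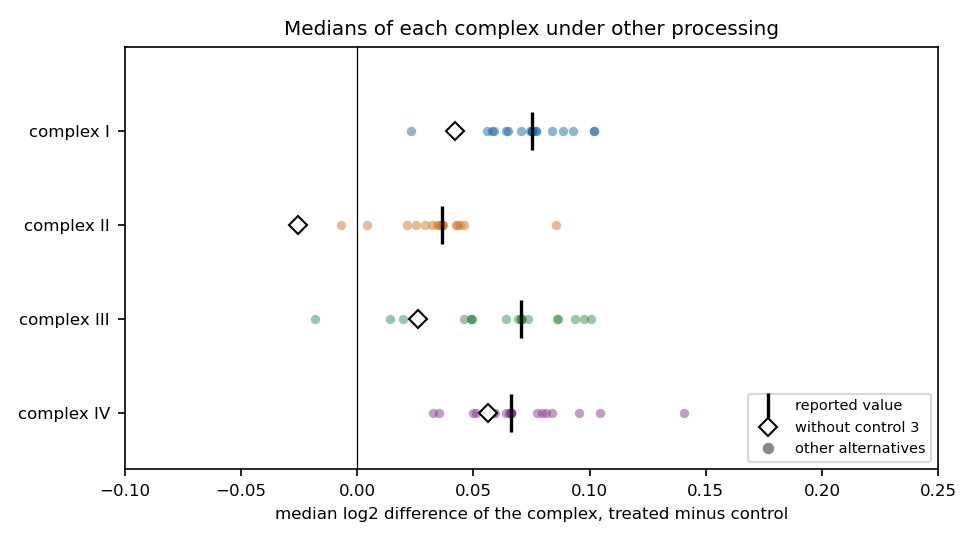
Median log2 difference of each complex, treated minus control (horizontal axis), as reported (bar), without control 3 (open diamond) and under the other alternatives (dots). Medians of complexes I and IV stayed above 0 in every alternative run, while those of complexes II and III took either sign.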

How the data were processed

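Per the labels' protocols, total RNA was labelled with biotin and hybridised to Illumina HumanWG-6 v3.0 arrays. The authors' deposited values are taken as log10, inferred from their highest value of 3.79, which on a log2 scale would fall far under a scanner's range, and as background subtracted, since 24.2% to 25.2% of probes sit at each array's lowest value; of the software, background step and normalization the details stand as not given in the sources used here. A second table has 10 columns that match no sample and was not used. Values were made linear, an offset of 3 units was added, and log2 values were quantile normalized. Probes whose mean was above the 25th percentile were kept (44606 of 48803). Per the platform annotation 27578 probes had 1 gene symbol, 27541 matched by Entrez identifier, and 13 had several. Above background means a deposited log10 value over 0.2.

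The comparison used limma 3.58.1 under R 4.3.3 (two-sided, no covariate, all 10 arrays), tested on simulated data, with Benjamini-Hochberg adjustment over 17753 genes and a threshold of 0.05. The number of arrays limits the precision. Every subunit is named. Arrays are given for the highest, lowest and brightest of each complex, any subunit at an unadjusted p under 0.05 or not overlapping, and some other genes; each other list gives its gene of lowest unadjusted p and any that passed. HMOX1, SRXN1, YY1, TFAM, NRF1, PPARGC1A, named epithelial markers, and the printed promoters were chosen after values were seen. Members and lists were chosen with earlier results of these data known. Alternatives covered offset, normalization, filter, probe rule, variance model, array weights, replicate block and each array left out.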

Additional observations from a re-analysis of the deposited data

Results flagged for a closer look

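Values are given here where 1 array lay so far from the other 4 of its group that its gap, as a share of the group's spread, passed the Dixon limit of 0.71. Of 112 sets of 5 values, 15 (13.4%) did so, where chance gives about 1 in 20. The sets are not independent because the same 5 arrays of a group enter each of its sets. The share of all genes past this limit is not given here, so the excess cannot be read as particular to these genes. Control 3, with 8 of the 15, lay below all other controls for 30.4% of all genes and above them for 27.7%. On control 3 the low values were 9.49 for NDUFS8 (10.08 to 10.27 on the other controls), 6.77 for SDHC (7.55 to 7.70), 9.11 for COX5B (9.59 to 9.76) and 5.95 for UQCR10 (6.39 to 6.53). The high values on control 3 were 9.79 for NDUFV2 (9.02 to 9.19), 8.26 for SDHD (7.19 to 7.45) and 7.64 for UQCRC2 (7.12 to 7.25). The median of all measured subunits on control 3 was −0.17 from the genes' means, against −0.04 to −0.01 on the other controls.

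On treated 5, CYC1 was at 10.18 (9.92 to 9.96 on the other treated arrays) and GABPA at 5.15 (5.28 to 5.31). On the same array the oxidant response genes GCLM, TXNRD1 and SLC7A11 were at 9.42, 10.99 and 6.49, and PDGFRB was at 1.66, below background. On treated 2, PDSS2 was at 8.06, with the remaining treated arrays between 7.83 and 7.87.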

How the results depend on the processing

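No subunit passed in any of 21 alternatives, where the lowest limma adjusted p of any was 0.323 and differences ran from −0.33 to 0.34; 10 of 34 subunits took either sign. The median over all subunits ran from 0.02 to 0.11, and leaving out 1 array gave 0.04 to 0.09. By complex, leaving out 1 array gave medians of 0.04 to 0.10 for complex I, −0.03 to 0.09 for II, 0.03 to 0.10 for III and 0.04 to 0.10 for IV. The median of complex III was −0.018 with the mean over probes, since both UQCRH probes then count, and that of complex IV was 0.14 on the deposited values. Counting NDUFA4 in complex I gave 0.06 for complex I and 0.08 for complex IV. Over all genes, 53 passed as reported, 28 on the deposited values, 87 with array weights and 28 to 49 with 1 array left out. Leaving out control 1, 2 or 4 left 31, 29 or 30 genes, and leaving out treated 1, 3 or 4 left 33, 28 or 30; the cause was not tested. Median scaling moved the median of all genes to −0.03. The labels do not say that same-numbered arrays share a culture, so the numbers were not taken to pair the arrays. Same-numbered arrays deviated together by correlations of −0.09 to 0.25, and 3 of 5 treated arrays correlated best with their own number. These values do not settle whether the arrays are paired. With replicate number as a block 45 genes and 0 subunits passed. GCLM and TXNRD1 passed in 11 and 7 of the 21 alternatives, and NQO1 and SLC7A11 in all 21. Adding the background back was planned and not run, since its size could not be had from the columns matched to samples. Signal near background limits NDUFB1 and NDUFS1 among the listed subunits, and NDUFS6 and NDUFB4 among the other complex I subunits.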
